A study of Homo sapiens with 2 samples.

Results

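Transcripts of 10 genes for growth factors of the PDGF, VEGF and KIT families and for their receptors were compared between a gefitinib-resistant lung cancer line and its parental line. The genes were taken by symbol from a table of 20985 genes, and all 10 were found: the ligands PDGFA, PDGFB, PDGFC, PDGFD, VEGFB, VEGFC and KITLG, and the receptors PDGFRA, PDGFRB and KIT. The resistant line, HCC827 ZDR3, came from HCC827 cells that were grown in gefitinib, first at 10 nM for 1 month and then at rising doses up to 1 µM, after which colonies were picked. The parental line was HCC827 itself, an established lung adenocarcinoma line with an activating mutation of EGFR, the kinase that gefitinib inhibits. ZDR3 derives from it, so both lines come from the same EGFR-mutant background. The labels do not say which of the picked colonies ZDR3 was, or whether gefitinib was present at harvest. Each line gave 1 library of polyadenylated RNA, so differences are described without p-values and hold for these 2 libraries, with no check by replicates.

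PDGF ligands are secreted dimers that bind the receptor tyrosine kinases PDGFRA and PDGFRB, which in the lung are carried chiefly by fibroblasts, myofibroblast precursors and pericytes. PDGFA and PDGFB are cut into active form inside the cell, while PDGFC and PDGFD leave the cell with an inhibitory CUB domain that proteases remove. VEGFB binds the receptor FLT1 and VEGFC binds FLT4, the receptor of lymphatic endothelium. KITLG, also called stem cell factor, binds KIT, which mast cells, melanocytes and blood stem cells need.

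The resistant library held 243549870 gene reads and the parental library 257192607. Levels are given in normalised reads, of which 1 unit stood for 138 reads in the resistant and 143 reads in the parental library, and they are not divided by gene length. Log2 ratios set resistant over parental, with 1 unit added to each level, and a gene was called expressed when its level reached 1 in at least 1 library. The 6 epithelial markers EPCAM, KRT8, KRT18, KRT19, CDH1 and KRT7 were expressed in both libraries. Of the 6, 5 were lower by 2-fold or more in resistant cells, against 9.68% of all expressed genes. The summed level of the 6 markers was 5609 in the resistant and 14105 in the parental library. In bulk RNA, fewer cells of a type and less RNA per cell cannot be told apart.

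Of the 10 genes 8 were expressed, namely the 7 ligands and KIT. In the resistant library 3 of these 8 were at least 2-fold higher, PDGFC, PDGFD and KITLG, against 10.6% of all 13777 expressed genes. KIT was the 1 gene at least 2-fold lower, against 9.68% of all expressed genes, and 20.3% of these passed 2-fold in either direction. A gene with 0 reads in 1 library that reaches the minimum level of 1 always passes 2-fold with 1 unit added. KIT had 0 reads in the resistant library, so its call was fixed once it counted as expressed. The other 4 ligands, PDGFA, PDGFB, VEGFB and VEGFC, differed by less than 2-fold. The median log2 ratio of the 8 was 0.42, and that of all expressed genes was -0.03.

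The promoters of some of the genes with the largest contrasts are shown. Those of PDGFD and KITLG, both higher in the resistant library, are given beside that of KIT, which had no reads there, and beside 1 promoter of PDGFRA, a gene almost without reads in either library. Sequences are from RefSeq on GRCh38.p14 and run 5′ to 3′ from 250 bases before to 50 bases after the transcription start. Capitals mark matches to the AP-1 motif TGANTCA, which is the same on both strands, or to the GC box GGGCGG on either strand (CCGCCC on the printed one).
PDGFD (GRCh38.p14, chr11:104164098-104164397, minus strand): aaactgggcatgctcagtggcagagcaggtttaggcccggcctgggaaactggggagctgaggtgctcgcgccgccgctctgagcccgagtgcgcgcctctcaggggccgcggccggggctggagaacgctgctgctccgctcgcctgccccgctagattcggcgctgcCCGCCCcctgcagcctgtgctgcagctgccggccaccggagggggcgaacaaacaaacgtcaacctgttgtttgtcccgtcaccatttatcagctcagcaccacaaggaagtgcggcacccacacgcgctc
KITLG (GRCh38.p14, chr12:88580422-88580721, minus strand): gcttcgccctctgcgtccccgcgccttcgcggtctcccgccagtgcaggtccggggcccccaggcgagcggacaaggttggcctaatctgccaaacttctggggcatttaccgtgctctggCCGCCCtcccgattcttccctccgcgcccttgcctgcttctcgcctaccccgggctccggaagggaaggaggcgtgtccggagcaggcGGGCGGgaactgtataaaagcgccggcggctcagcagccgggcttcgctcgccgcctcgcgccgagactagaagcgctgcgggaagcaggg
KIT (GRCh38.p14, chr4:54657707-54658006, plus strand): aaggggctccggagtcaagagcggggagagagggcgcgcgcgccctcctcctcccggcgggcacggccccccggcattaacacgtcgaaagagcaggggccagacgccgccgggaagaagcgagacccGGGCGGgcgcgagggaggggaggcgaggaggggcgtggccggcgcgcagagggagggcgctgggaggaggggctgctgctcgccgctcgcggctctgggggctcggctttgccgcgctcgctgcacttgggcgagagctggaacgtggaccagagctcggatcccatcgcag
PDGFRA (GRCh38.p14, chr4:54229043-54229342, plus strand): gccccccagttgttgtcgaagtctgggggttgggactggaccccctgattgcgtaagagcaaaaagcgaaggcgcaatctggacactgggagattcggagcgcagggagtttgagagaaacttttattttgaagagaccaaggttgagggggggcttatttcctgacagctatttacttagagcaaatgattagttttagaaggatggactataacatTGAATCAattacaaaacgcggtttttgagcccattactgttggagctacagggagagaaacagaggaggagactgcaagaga

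AP-1, the dimer of JUN and FOS proteins, was searched because the series title names JUN. The RefSeq table held 8 of the 10 genes, without PDGFB and PDGFC, in 12 windows, since PDGFA had 4 starts and PDGFRA 2. The AP-1 motif stood in 1 of the 12 windows, against 7.71% of all 35116 promoters of that length. That match was TGAATCA in the PDGFRA window shown, 32 bases before the start. The windows of PDGFD, KITLG and KIT held no such letters. The GC box stood in 11 of the 12 windows, against 45.0% of all promoters. It began 81 bases before the start in PDGFD, 129 and 41 bases before it in KITLG, and 122 bases before it in KIT. The windows held between 47.0% and 84.7% G and C, against a median of 58.7% over all promoters. The lowest share was that of the PDGFRA window with the AP-1 match, which was also the 1 window without a GC box. No window held both motifs, so an overlap between them was not possible.

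The PDGF ligands were led by a large difference in PDGFD, which signals mainly through PDGFRB. PDGFD (ENSG00000170962, chromosome 11) had a level of 21.8 in the resistant library, from 3003 reads, against 2.70 in the parental library, from 386 reads. The ratio of 8.08, for which counting alone gives an exact 95% interval of 7.26 to 9.00, corresponds to a log2 ratio of 2.62. Of the expressed genes 276, or 2.0%, had a higher log2 ratio than PDGFD. Intervals here are Clopper-Pearson for ratios, and they cover counting error only, not the unknown spread between cultures.

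PDGFC (ENSG00000145431, chromosome 4), a ligand of PDGFRA, was the most abundant of the PDGF ligands per length in both libraries. Its level was 84.0 in the resistant and 38.3 in the parental library, from 11563 and 5469 reads in that order. The ratio was 2.20, with an interval of 2.13 to 2.27, and the log2 ratio was 1.11. A higher log2 ratio was seen in 9.07% of the expressed genes, so a difference of this size was common between the libraries.

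PDGFB (ENSG00000100311, chromosome 22), which binds both PDGF receptors, had a level of 28.5 in the resistant and 17.7 in the parental library. Its ratio of 1.61, with an interval of 1.53 to 1.69 and a log2 ratio of 0.65, stayed under 2-fold. PDGFA (ENSG00000197461, chromosome 7), the ligand that binds PDGFRA alone, stood at 7.16 in the resistant and 8.36 in the parental library. The ratio of 0.856, with an interval of 0.786 to 0.932, gave a log2 ratio of -0.20, so PDGFA was the 1 PDGF ligand with a lower level in the resistant library.

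Per length of exon, the PDGF ligands summed to 29.4 normalised reads per kb in the resistant library, against 14.2 in the parental library, a ratio of 2.07. PDGFC made up 51.0% of this sum in the resistant and 48.2% in the parental library. PDGFD made up 17.4% in the resistant library and 4.46% in the parental library. PDGFB made up 25.7% in resistant cells against 33.2% in parental cells, and PDGFA 5.86% in resistant cells against 14.2% in parental cells. The larger sum thus went with a larger share of PDGFD and smaller shares of PDGFA and PDGFB.

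**Figure D1:**
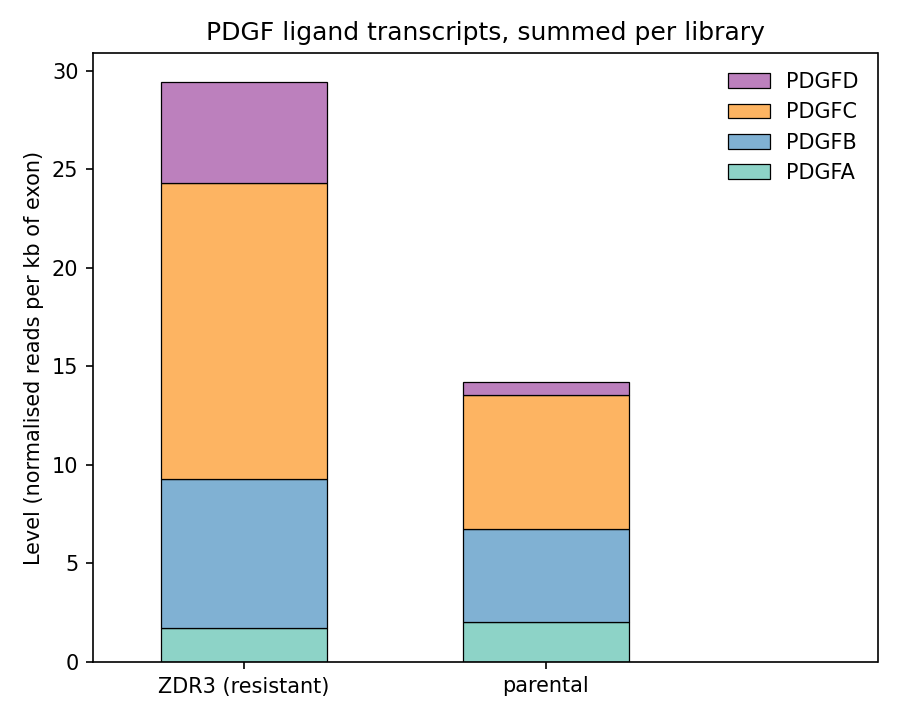
Summed level of the PDGF ligand transcripts in normalised reads per kb of exon (y axis) in the ZDR3 and parental libraries, with 1 library per bar and 1 colour per ligand. The ZDR3 bar reaches 29.4 and the parental bar 14.2, and PDGFC is the largest block in each.

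The PDGF receptors were almost without reads. PDGFRA (ENSG00000134853, chromosome 4) had 8 reads in the resistant and 2 reads in the parental library, which are levels of 0.0581 and 0.0140 in that order. The ratio of 4.15 had a counting interval of 0.829 to 40.1, so no difference was detectable at this depth. PDGFRB (ENSG00000113721, chromosome 5) had 8 reads in the resistant and 30 reads in the parental library. Its ratio of 0.277 had an interval of 0.110 to 0.618, a difference larger than counting error at levels far below the minimum for an expressed gene. The receptors together held 0.0141 normalised reads per kb in the resistant and 0.0309 in the parental library. PDGF ligand transcripts thus exceeded PDGF receptor transcripts by a ratio of 2085 in the resistant and 460 in the parental library, per length, on 16 receptor reads in the resistant and 32 in the parental library.

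KIT and its ligand differed in opposite directions. KITLG (ENSG00000049130, chromosome 12) had a level of 48.9 in the resistant library, from 6732 reads, against 12.4 in the parental library, from 1766 reads. The ratio was 3.96, with an interval of 3.76 to 4.17, and the log2 ratio was 1.90. A higher log2 ratio was seen in 529 expressed genes, or 3.84%. KIT (ENSG00000157404, chromosome 4) had 0 reads in the resistant library and 323 reads in the parental library, a level of 2.26. Against a floor of 3 reads in the resistant library, KIT was 104-fold lower, without allowance for counting error. By the exact counting interval, KIT was at least 83.9-fold lower. Its log2 ratio of -1.71 depends on the unit added, because the parental level was itself low, and with 5 units added it was -0.54 and no longer 2-fold. A lower log2 ratio than that of KIT was seen in 562 expressed genes, or 4.08%. Per length, KITLG exceeded KIT by a ratio of 4.90 in the parental library, whereas in the resistant library KITLG stood at 7.88 normalised reads per kb with no KIT reads.

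The VEGF ligands differed little. VEGFB (ENSG00000173511, chromosome 11) had a level of 66.2 in the resistant and 58.1 in the parental library, a ratio of 1.14 with an interval of 1.11 to 1.17. VEGFC (ENSG00000150630, chromosome 4), the lymphatic growth factor, had a level of 8.20 in the resistant and 12.7 in the parental library. The VEGFC ratio was 0.646, with an interval of 0.599 to 0.696, and its log2 ratio was -0.57. Both differences exceeded counting error and stayed under 2-fold.

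Per length, VEGFB was the most abundant of the 10 transcripts in both libraries, at 42.9 normalised reads per kb in the resistant and 37.6 in the parental library. This placed VEGFB above 92.3% of the genes with a known length in the resistant library and above 90.6% in the parental library. In the resistant library it was followed by PDGFC, KITLG, PDGFB, PDGFD, VEGFC and PDGFA, at 15.0, 7.88, 7.57, 5.12, 3.39 and 1.72 normalised reads per kb in that order. The exact 95% Poisson intervals of the neighbours KITLG (7.70 to 8.07) and PDGFB (7.34 to 7.81) overlapped. In the parental library VEGFB was followed by PDGFC at 6.84, VEGFC at 5.24, PDGFB at 4.71, PDGFA at 2.01, KITLG at 1.99, PDGFD at 0.633 and KIT at 0.406 normalised reads per kb. There the intervals of PDGFA (1.90 to 2.13) and KITLG (1.90 to 2.09) overlapped. KITLG took rank 3 in the resistant and rank 6 in the parental library, and VEGFC took rank 6 in the resistant and rank 3 in the parental library.

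**Figure D2:**
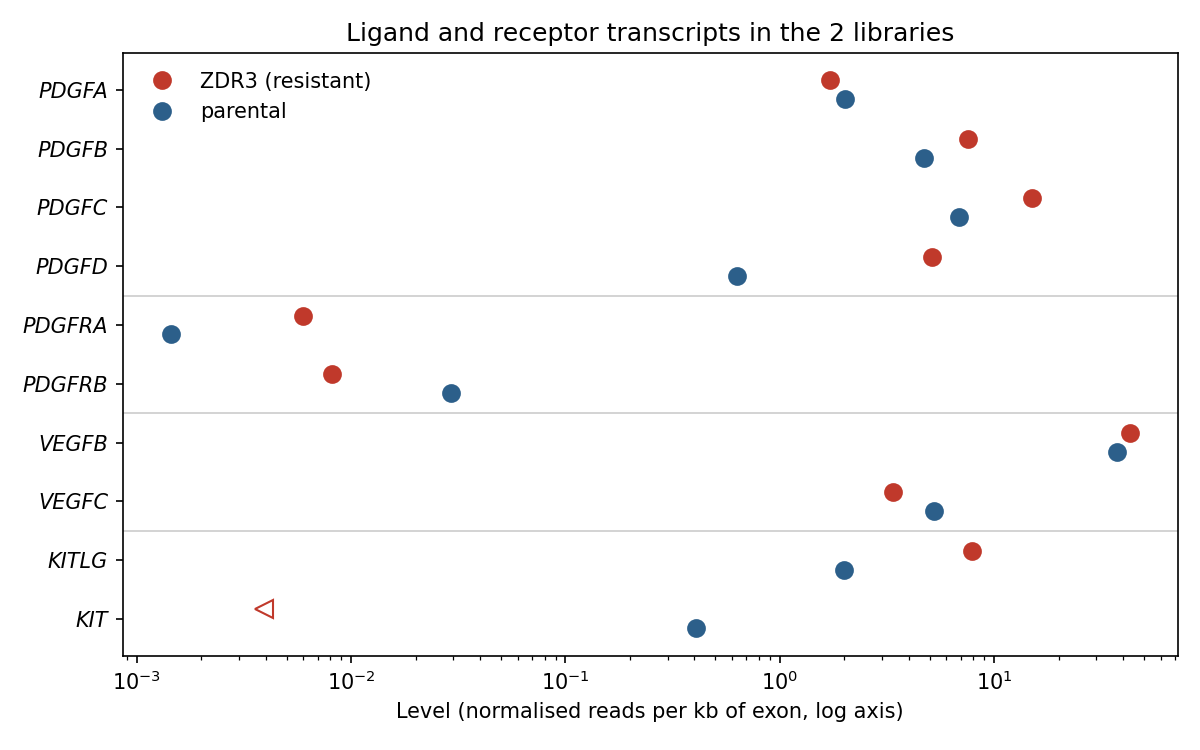
Level of each gene in normalised reads per kb of exon (x axis, log scale) in the ZDR3 library (upper point of each row) and the parental library (lower point), with 1 library per point. The open triangle marks the limit set by 3 reads for KIT, which had 0 reads in ZDR3, and PDGFRA and PDGFRB lie below 0.05 in both libraries.

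Each expressed gene was set against the expressed genes beside it on its chromosome, 20 on each side. The median log2 ratio of these neighbours lay between -0.34 and 0.09 for the 8 genes, so none of them sat among neighbours that differed 2-fold by their median. PDGFD exceeded its neighbours' median by 2.62 and had a higher log2 ratio than all 40 neighbours. KITLG exceeded its neighbours' median by 1.95 and ranked above 39 of 40, the exception being E2F7 at 3.40. PDGFC exceeded its neighbours' median by 1.24 and ranked above 36 of 40. KIT lay 1.79 below its neighbours' median and had a lower log2 ratio than all 40.

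PDGFB exceeded its neighbours' median by 0.68, VEGFB by 0.34 and PDGFA by 0.14, while VEGFC lay 0.64 below. PDGFA sits near a chromosome end and had 21 neighbours, and with 10 genes on each side its difference was -0.03.

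PDGFRA, KIT, PDGFC and VEGFC lie on chromosome 4, where PDGFRA and KIT are neighbours. The nearest expressed gene before KIT was CHIC2, with a log2 ratio of 0.87, and the nearest after it was SRD5A3, at 0.29, both with higher levels in the resistant library. PDGFC lay between CTSO (1.48) and GLRB (0.63), whose levels were also higher in the resistant library. VEGFC lay between SPCS3 (0.55) and NEIL3 (-1.13). The expressed gene after KITLG on chromosome 12 was the ERK phosphatase gene DUSP6, at 7.05 in the resistant and 44.9 in the parental library (log2 ratio -2.51), opposite to KITLG. E2F7 and DUSP6 were chosen after their values were seen.

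**Figure D3:**
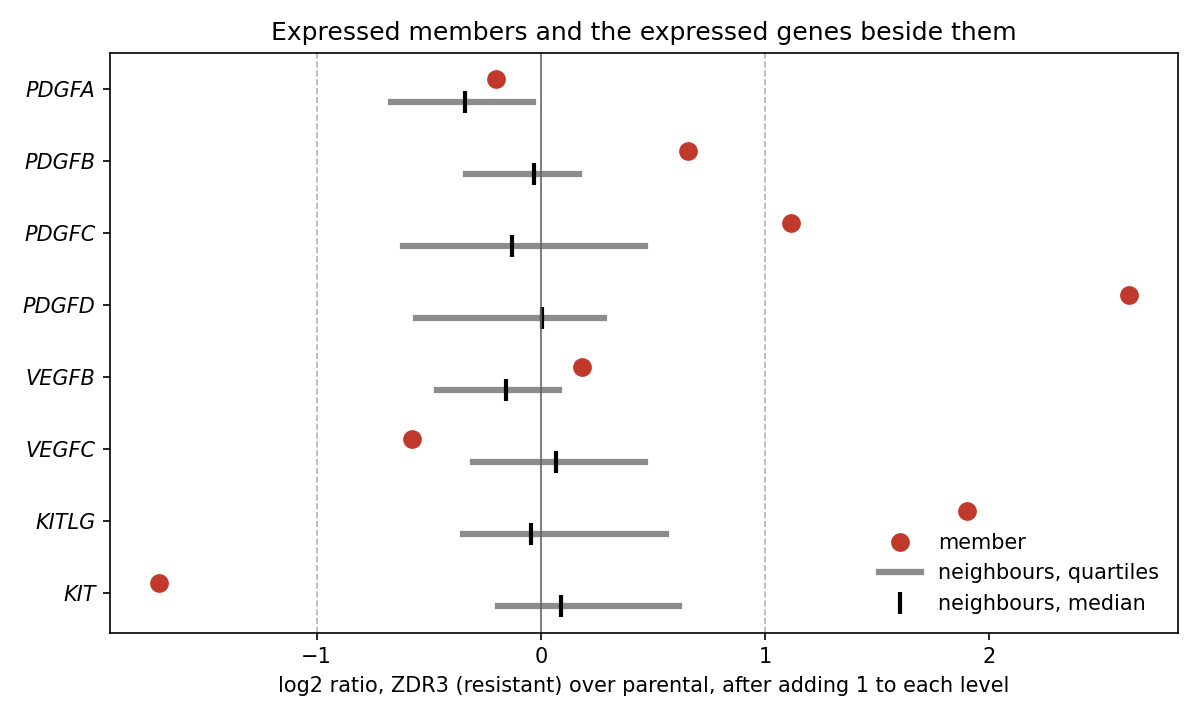
log2 ratio of ZDR3 over parental (x axis) for the 8 expressed genes (red points) and for the expressed genes nearest to each on its chromosome (grey bars from the lower to the upper quartile, black ticks at the median). Dashed lines mark 2-fold, and PDGFC, PDGFD, KITLG and KIT lie outside them while the neighbours' medians lie between -0.34 and 0.09.

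Among the other ligands, receptors and co-receptors of these families, 10 of 13 were expressed. By the 2-fold rule 1 was higher and 1 lower, against 10.6% higher and 9.68% lower of all expressed genes. The median log2 ratio of the list was -0.53, or -0.33 with 5 units added. FLT3, a receptor of blood progenitors related to KIT, had 230 reads and a level of 1.67 in the resistant library, against 0 reads in the parental library. Against a floor of 3 reads in the parental library, FLT3 was 79.6-fold higher, without allowance for counting error. By the exact counting interval, FLT3 was at least 64.2-fold higher, and its log2 ratio was 1.42. As with KIT, its 2-fold call was fixed by 0 reads in 1 library and the minimum level. FLT4, the receptor of VEGFC, had 141 reads in the resistant and 2 reads in the parental library. The FLT4 ratio of 73.2 had an interval of 19.9 to 610, and its log2 ratio was 1.00, just under the 2-fold rule. NRP2, a co-receptor of VEGFC, stood at 532 in the resistant and 1244 in the parental library (log2 ratio -1.22). CSF1R, the macrophage receptor beside PDGFRB on chromosome 5, stood at 0.763 in the resistant and 1.83 in the parental library (log2 ratio -0.68). FLT1, the receptor of VEGFB, and KDR were below the minimum, with 6 and 4 reads in the resistant and 8 and 21 reads in the parental library, in that order. VEGFA, a further VEGF ligand, was at 459 in the resistant and 625 in the parental library (log2 ratio -0.45). PGF, of the same family, was at 1.03 in the resistant and 0.308 in the parental library. The PGF ratio of 3.35 had an interval of 2.37 to 4.81, and its log2 ratio of 0.64 stayed under the 2-fold rule. FLT1, KDR, VEGFA and PGF were named after their values were seen.

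The list of ligand-processing proteases and their cofactors held the largest contrasts of the 4 pathway lists. Of 12 genes 11 were expressed. By the same rule 2 were higher and 2 lower, against 10.6% higher and 9.68% lower of all expressed genes. The median log2 ratio of the 11 was -0.45. PCSK5, a proprotein convertase, was at 58.0 in the resistant and 0.329 in the parental library (log2 ratio 5.47). ST14, the membrane protease matriptase, which can cleave PDGFC and PDGFD, was at 9.50 in the resistant and 413 in the parental library (log2 ratio -5.30). PLAT, the tissue plasminogen activator that cuts PDGFC, was at 8.17 in the resistant and 22.4 in the parental library (log2 ratio -1.35). ADAMTS3, which cuts VEGFC, was at 2.01 in the resistant and 0.224 in the parental library (log2 ratio 1.30). PDGFC and PDGFD thus had higher transcript levels in the same library in which ST14 and PLAT had lower ones. PLAU, a more abundant protease of the same list, was at 660 in the resistant and 800 in the parental library. Its log2 ratio was -0.28, under 2-fold, and PLAU was named after its value was seen.

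Of 32 signal transducers that dock on these receptors, 31 were expressed, with a median log2 ratio of -0.41. By 2-fold or more 3 were higher and 8 lower, against 10.6% higher and 9.68% lower of all expressed genes. The SRC-family kinase FYN was at 234 in the resistant and 16.9 in the parental library (log2 ratio 3.72). LYN, another SRC-family kinase and one that acts with KIT in blood cells, was at 31.9 in the resistant and 137 in the parental library (log2 ratio -2.07). PIK3R3, a regulatory subunit of PI3K, was at 15.1 in the resistant and 136 in the parental library (log2 ratio -3.09). SH2B3, an adaptor that dampens signalling by KIT, was at 20.9 in the resistant and 5.45 in the parental library (log2 ratio 1.76). PLCG1, the other gene past 2-fold upward, had a log2 ratio of 1.14 and was named after its value was seen. The other genes past 2-fold downward were SH2B2 (-1.75), GRB7 (-1.71), STAT3 (-1.39), CBLB (-1.36), GAB2 (-1.35) and SHB (-1.32). They too were named after their values were seen.

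Of 19 phosphatases and negative regulators, 17 were expressed, with a median log2 ratio of -0.26. By 2-fold or more 1 was higher and 4 lower, against 10.6% higher and 9.68% lower of all expressed genes. The lower ones of this list were the ERK feedback inhibitor SPRY1 (-1.65), the cytokine signalling suppressors SOCS1 (-1.38) and SOCS2 (-1.11), and the phosphatase PTPN12 (-1.10). SPRY4, named after its value was seen, was the higher one (1.04). The medians of the 4 lists lay below that of all expressed genes, and that of the 8 expressed ligand and receptor genes above it.

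**Figure D4:**
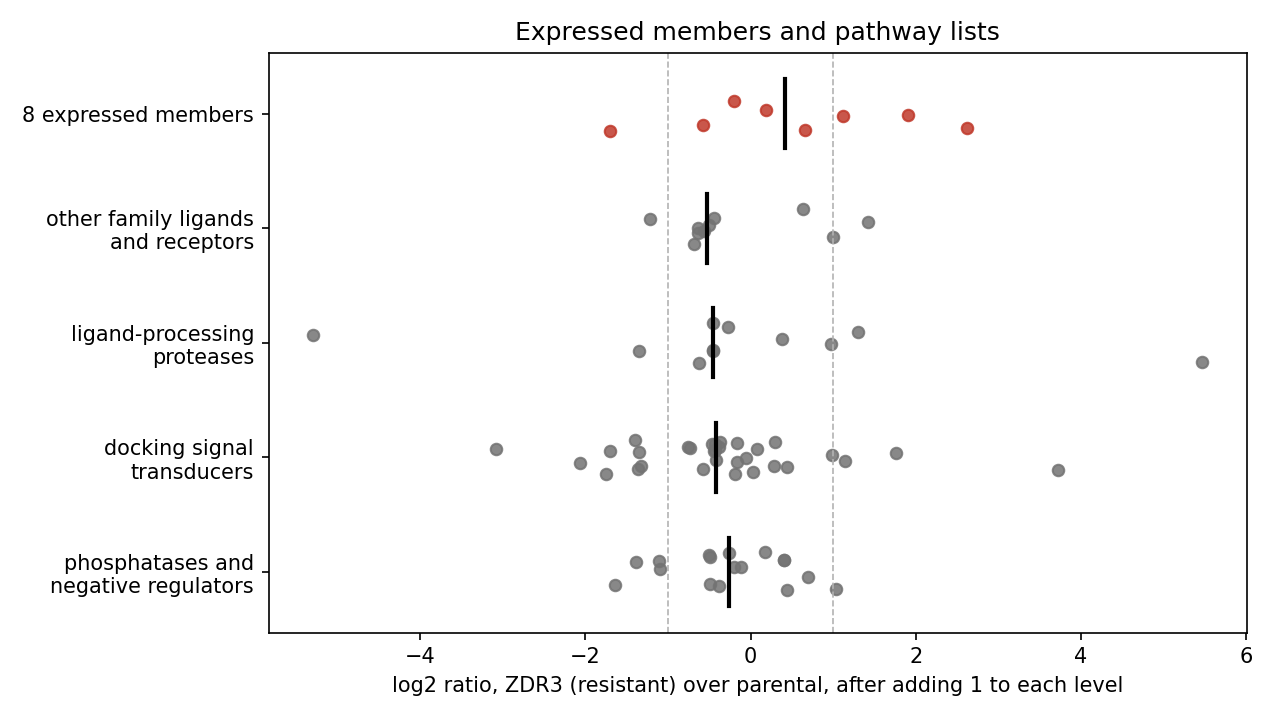
log2 ratio of ZDR3 over parental (x axis) for each expressed gene (1 point per gene) of the 8 ligands and receptors (red) and of the 4 pathway lists (grey), with black bars at the medians and dashed lines at 2-fold. The median of the red points is 0.42 and those of the lists lie between -0.53 and -0.26.

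Markers of the cell types that commonly carry these receptors were examined in the same libraries. Of 9 endothelial markers found 3 were expressed, EGFL7, ROBO4 and TIE1. By 2-fold or more 0 were higher and 1 lower, against 10.6% higher and 9.68% lower of all expressed genes. ROBO4 was at 0.109 in the resistant and 1.57 in the parental library (log2 ratio -1.22). TIE1 was at 1.16 in the resistant and 0.336 in the parental library (0.69). The summed level of the list was 12.4 in the resistant and 20.2 in the parental library. Most of it came from EGFL7, at 10.5 in the resistant and 17.5 in the parental library (-0.69). The other 6 endothelial markers differed in direction. ERG had 49 reads in the resistant and 0 in the parental library, and CLDN5 had 4 in the resistant and 0 in the parental library. TEK had 0 reads in the resistant and 13 in the parental library, VWF had 7 in the resistant and 42 in the parental library, ESAM had 27 in the resistant and 48 in the parental library, and CDH5 had 2 in the resistant and 3 in the parental library. Of 7 mast cell markers found 1 was expressed, GATA2, at 27.8 in the resistant and 32.5 in the parental library. CPA3, HDC and MS4A2 had 0 reads in both libraries. HPGDS had 0 reads in the resistant and 23 in the parental library, the same direction as KIT, while CMA1 had 7 reads in the resistant and 5 in the parental library, and TPSAB1 had 2 in the resistant and 0 in the parental library. The part of mast cell transcripts in the KIT difference was not tested.

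Of 10 fibroblast and pericyte markers 6 were expressed. By 2-fold or more 3 were higher and 2 lower, against 10.6% higher and 9.68% lower of all expressed genes. The summed level of the list was 667 in the resistant and 155 in the parental library. Most of it came from MCAM, at 571 in the resistant and 129 in the parental library. FBLN1 (log2 ratio 3.14) and the pericyte gene RGS5 (2.43) were also higher, and ANPEP (-2.66) and COL1A1 (-1.88) were lower, while CSPG4 stood at -0.71. Of the other 4, COL3A1 had 0 reads in both libraries, the fibroblast gene DCN had 3 reads in the resistant and 19 reads in the parental library, and COL1A2 and LUM each had 4 reads in the resistant and 2 reads in the parental library. The markers below the minimum level were named after their values were seen. The higher levels of MCAM, FBLN1 and RGS5 were seen in the same library as the higher levels of PDGFC and PDGFD, and their part in that difference was not tested.

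Reads of overlapping genes could enter some of these counts, since the strand setting of the counting is not given in the sources used here. Exons of PDGFD overlap those of DDI1 on the opposite strand, which had 0 reads in both libraries. Exons of PDGFRA overlap those of AC058822.1, a protein-coding gene on the same strand that was not analysed here, so the few reads of PDGFRA cannot be told apart from reads of that gene by strand. Exons of KITLG overlap those of an antisense gene, AC024941.2, which was not analysed here. Whether reads of that gene entered the KITLG count depends on the unknown strand setting and was not tested.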

How the data were processed

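Polyadenylated RNA of the resistant and the parental cells was sequenced on an Illumina HiSeq, per the labels' protocols. The labels describe isotope-labelling medium without tying it to the sequenced cells. The submitters' processing notes name TopHat. The sources used here give neither its version nor the build, the counting tool or the strand setting. The authors deposited 1 log2 value per gene and library and named the values RPKM. Back-transformed, they were whole multiples of 1 step per library, 0.00727 for the resistant and 0.00700 for the parental library, the same for every gene, so they were not divided by length. All genes with 1 to 100000 reads, 17049 in the resistant and 17090 in the parental library, came out whole within 0.1 read. The lowest value, equal to 0.9 reads, was shared by 3573 genes in the resistant and 3504 in the parental library, and these genes were set to 0. The column ending in Prim was read as parental, since the other names ZDR3.

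A pseudocount of 1, a minimum level of 1 and a 2-fold rule were used, with no test. Levels per kb used the union of exons in GENCODE release 29, which also gave gene order and chromosomes and need not be the authors' annotation. Of the expressed genes 97.8% had a position. Named were the 10 genes, up to 4 expressed genes per list with the largest absolute log2 ratio, listed genes with 0 reads in 1 library and at least 100 in the other, expressed markers, and the nearest expressed neighbours on chromosome 4. Genes named outside this rule, among them the markers below the minimum level, are marked as chosen after their values were seen. The genes and lists were chosen with earlier results of these data known. Python 3.11.15, numpy 2.4.6, pandas 2.3.3, scipy 1.17.1 and matplotlib 3.10.9 were used.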

Additional observations from a re-analysis of the deposited data

How the results depend on the processing

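No paired analysis was possible because each group held 1 library, and for the same reason no replicate could be left out. Of the 50 log2 ratios of the 10 genes under 5 alternatives (pseudocounts of 0.5 and 5, and rescaling to equal totals, by the median of ratios or by the upper quartile), 49 kept their direction and their side of the 2-fold rule. The exception was KIT, at -0.54 with a pseudocount of 5. With that pseudocount or with a minimum level of 5, 0 of the 10 genes were at least 2-fold lower. A pseudocount of 5 also moved the counts over all expressed genes to 901 higher and 865 lower, against 1463 and 1333, and those over the phosphatases and negative regulators to 0 higher and 2 lower. The count of higher genes among the proteases and cofactors was 1 with a pseudocount of 5 or a minimum level of 5. It was 3 with a pseudocount of 0.5 and with rescaling by the median of ratios or the upper quartile. The count of higher signal transducers was 4 under each rescaling, against 3. The count of higher genes among the other family ligands and receptors was 2 with a pseudocount of 0.5 and under each rescaling, where FLT4 passed 2-fold, and 0 with a pseudocount of 5 or a minimum level of 5. The median of that list was -0.33 with a pseudocount of 5, against -0.53. PDGFA minus its neighbours' median was -0.034 with 10 neighbours on each side. The order of the genes per length was the same with the longest transcript as length. Rescaling moved the median of all expressed genes by at most 0.07. Depth limits PDGFRA and PDGFRB, with 2 to 30 reads.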
